A study of Mus musculus with 6 samples.

Results

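The genes described here encode the route from glucose to lactate and to the mitochondrial entry of pyruvate: glucose transporters, glycolytic enzymes, lactate dehydrogenases, lactate transporters, and the pyruvate dehydrogenase complex with its kinases and phosphatase. The list holds 34 genes and was fixed by name. A gene counted as measured where a probe set carried its symbol alone, and its brightest probe set (by mean over the 6 arrays) stood for it. By that rule 30 of the 34 genes were measured, of 19938 genes in all. Gpi1 (glucose-6-phosphate isomerase), Eno1 (the widely expressed enolase) and Pfkfb1 had no probe set named for them. Gapdh was carried only by 25 probe sets that also name other genes, so it was not used.

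Expression was measured in mouse induced pluripotent stem cells (iPSCs, somatic cells returned to a pluripotent state), with 3 arrays of naive and 3 arrays of primed cells. Naive cells resemble the inner cell mass before implantation and primed cells the epiblast after it. Naive medium was DMEM with LIF (leukaemia inhibitory factor) at 1000 U/ml and 15% serum (FBS), supplemented with non-essential amino acids, glutamine, pyruvate and mercaptoethanol. Primed medium was conditioned by mouse embryonic fibroblasts, held basic FGF at 8 ng/ml and was used on feeder cells or Matrigel; the labels do not say which of these supports the arrays represent. By the titles the naive cells came from embryonic and the primed cells from adult dermal fibroblasts, while another label gives embryonic fibroblasts for all arrays. Culture state and origin of the line therefore cannot be told apart if the titles hold. Strain, sex, passage and the number of independent lines were not given in the sources used here, and the labels do not say what a biological replicate repeated, so p-values measure only the spread between these samples.

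Glycolysis splits glucose into pyruvate in the cytosol. Phosphofructokinase commits sugar to the pathway and is switched by fructose-2,6-bisphosphate, which the PFKFB enzymes make and remove. Pyruvate is then reduced to lactate or enters mitochondria through pyruvate dehydrogenase, which the PDK kinases inactivate and the PDP phosphatases reactivate. Most steps have several isozymes, encoded by separate genes with different tissue distributions and regulation. Both pluripotent states are known for active glycolysis, and primed cells for a greater reliance on it.

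Values are log2 expression values made by RMA (robust multi-array average), and every difference is primed minus naive on that scale. Array medians lay between 7.78 and 7.83 over 35556 probe sets. Background was set on every array at the 95th percentile of 1190 genes for olfactory or vomeronasal receptors (6.96 to 7.03), and a group counts as in background when all its arrays fall short of it. The 10 defining pluripotency genes examined, among them Sox2 and Nanog, were above background in both groups. Of them 8 were lower in primed cells, led by Dppa4 (-1.74), Pou5f1 (-1.06), Zfp296 (-1.04) and L1td1 (-0.96). The other Dppa4 probe set, less bright, gave -3.04. Markers of state did not all follow the labels: Esrrb, known from naive cells, was at 8.25 ± 0.11 in naive and 11.24 ± 0.02 in primed cells (SD, n = 3), and Zfp42, another naive marker, lay in background in both groups. Otx2, an epiblast factor, was higher in primed cells by 0.92. Naive and primed therefore stand here for the groups so labelled. Fibroblast markers, which feeder cells would carry, split into 8 higher in naive cells, 3 higher in primed cells and 7 not passing (11 and 2 with each array centred on its median gene). Dcn, for the matrix proteoglycan decorin, had the largest difference of the fibroblast list and was higher in primed cells (2.89). Acta2 (-1.23), Tagln (-1.09) and Col1a1 (-0.76) were lower. The summed level of the fibroblast markers was 14.11 to 14.17 in naive cells against 13.74 to 13.84 (log2 of the summed linear values, in which Vim, Acta2 and Tagln weigh most). Of the 18, Fap, Lum, Postn, Prrx1 and S100a4 lay in background in both groups. In bulk samples fewer cells of a type and less RNA per cell cannot be told apart, and the part of these markers in the results below was not tested.

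The pathway did not move as a block between naive and primed cells. Levels changed at chosen isozymes and regulators, while transporters and most trunk enzymes differed by little. Of the 30 measured genes, 10 were higher in primed cells (Pfkl, Pfkm, Aldoa, Aldoc, Eno2, Ldhb, Slc16a1, Pdk2, Pdk4 and Pdp1) and 4 higher in naive cells (Pfkfb2, Pfkfb3, Eno3 and Ldha) at a limma adjusted p under 0.05. This is 46.7% of the members, against 44.5% of all genes, so the count by itself is no result about the pathway. By direction, 33.3% of members were higher in primed cells against 21.8% of all genes, and 13.3% were higher in naive cells against 22.7%. The split depends on scaling: with each array centred on its median gene it was 8 and 10, and after quantile normalization 12 and 3. The split of all 19938 genes moved too, to 3439 and 6325 with that centring and to 5011 and 4092 after quantile normalization. Differences of at least 0.5 past the threshold were found for 7 members (23.3%), against 13.9% of all genes. The median difference was -0.02 over the members and -0.00 over all genes. The groups did not overlap for 20 of the 30 members (66.7%), against 52.9% of all genes. In 12 of these primed cells were higher (against 25.9% of all genes) and in 8 naive cells (against 27.0% of all genes).

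**Figure D1:**
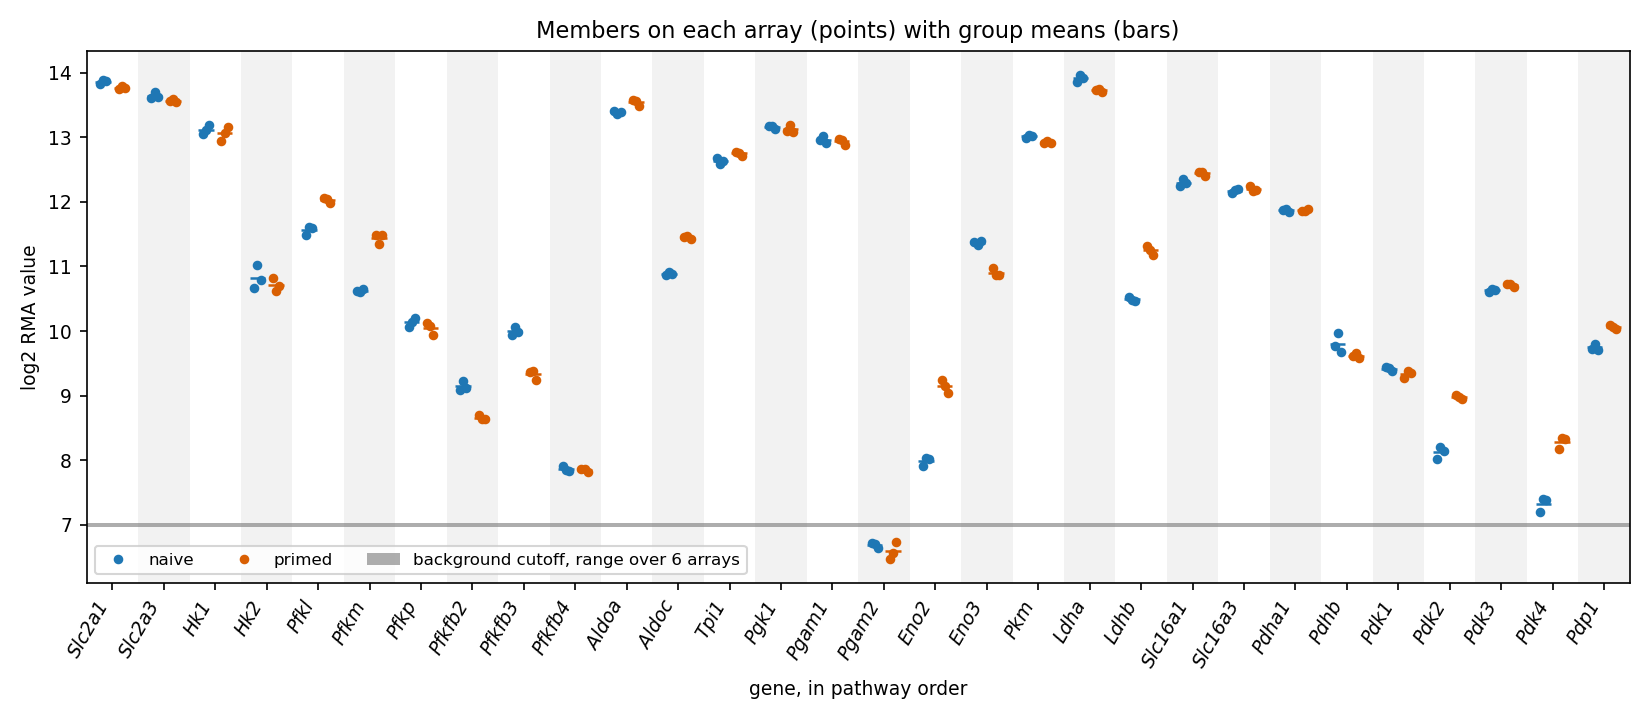
Log2 RMA value (vertical axis) of the 30 measured genes in pathway order on each of 3 naive (blue) and 3 primed (orange) arrays, with bars for group means and a grey band for the background cutoffs of 6.96 to 7.03. The groups stand well apart for Pfkm, Eno2, Ldhb, Pdk2 and Pdk4, and Pgam2 alone lies under the band.

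Neither of the glucose transporter genes in the set passed. Slc2a1, which encodes the widely expressed glucose transporter GLUT1, was at 13.83, 13.89 and 13.88 on naive arrays and at 13.76, 13.80 and 13.76 on primed arrays. All 3 naive arrays lay above all 3 primed arrays, yet the difference was small (-0.10, 95% confidence interval -0.20 to 0.01, adjusted p = 0.15). Slc2a3, for the high-affinity transporter GLUT3, showed the same order with a difference of -0.08 (interval -0.19 to 0.03, adjusted p = 0.25). With arrays centred on their median both passed as higher in naive cells (adjusted p = 0.017 and 0.033), and Slc2a1 also with an intensity trend (0.011).

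Hexokinases, which trap glucose by phosphorylation, did not pass. Hk2, the inducible form, was at 10.67, 11.02 and 10.79 on naive and at 10.83, 10.61 and 10.69 on primed arrays. The groups overlapped and the interval was wide (-0.31 to 0.07, adjusted p = 0.32). The value of Hk1 depends on which probe set is read. Its brightest probe set (13.12 ± 0.07 and 13.06 ± 0.11, SD, n = 3) is named for Hk1 through 1 accession only, which 16 other probe sets that also name the ribosomal protein gene Rpl17 carry. Those 16 had group means between 12.11 and 13.55. The other Hk1 probe set, which holds RefSeq transcripts of the gene, was at 9.20, 9.49 and 9.23 on naive and at 9.48, 9.48 and 9.44 on primed arrays. On it the difference was 0.16 (SE 0.07, adjusted p = 0.11), so Hk1 did not pass on either probe set, but the signs were opposite.

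At phosphofructokinase, the committing step, the isozymes parted. Pfkm, named for muscle, was at 10.62, 10.60 and 10.65 on naive and at 11.48, 11.35 and 11.49 on primed arrays. It rose 1.76-fold, a difference of 0.82 (SE 0.06, adjusted p = 3.8e-07). Pfkl, named for liver, went from 11.49, 11.61 and 11.60 to 12.07, 12.04 and 11.99. That is a rise of 0.47 (SE 0.05, adjusted p = 2.9e-05), with every primed array above every naive one. Pfkp, named for platelets, was at 10.07, 10.14 and 10.20 on naive and at 10.12, 10.08 and 9.94 on primed arrays, with overlapping groups (-0.09, interval -0.23 to 0.05, adjusted p = 0.28).

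Of the 3 measured genes whose enzymes set fructose-2,6-bisphosphate, Pfkfb2 and Pfkfb3 were lower in primed cells and Pfkfb4 did not pass. Pfkfb3, whose product strongly favours making this activator, was at 9.94, 10.07 and 9.98 on naive and at 9.37, 9.38 and 9.24 on primed arrays. It was 1.59-fold higher in naive cells, a difference of -0.67 (SE 0.06, adjusted p = 3.2e-06). Pfkfb2, best known from heart, went from 9.09, 9.23 and 9.12 to 8.70, 8.63 and 8.63, a difference of -0.49 (SE 0.06, adjusted p = 2.3e-05). Neither gene's groups overlapped. Pfkfb4 was at 7.91, 7.84 and 7.83 on naive and at 7.86, 7.87 and 7.82 on primed arrays, with overlapping groups and a difference of -0.01 (interval -0.12 to 0.10). Of 3 measured genes on each side, 2 for phosphofructokinase were thus higher and 2 of the PFKFB genes lower in primed cells.

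Aldolase cleaves the sugar into triose phosphates, and both measured isozymes rose. Aldoc was at 10.87, 10.91 and 10.88 on naive and at 11.45, 11.47 and 11.42 on primed arrays, a rise of 0.56 or 1.47-fold (SE 0.05, adjusted p = 2.9e-06). Aldoa, the main form in most cells, went from 13.41, 13.37 and 13.39 to 13.59, 13.56 and 13.49, a rise of 0.16 (SE 0.05, adjusted p = 0.027). The Aldoa call was fragile: it ended with median centring (adjusted p = 0.17) and without naive replicate 2 (0.074) or 3 (0.070), or primed replicate 1 (0.067) or 2 (0.079).

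The reactions from triose phosphate to phosphoglycerate differed little. Tpi1, triosephosphate isomerase, was at 12.67, 12.59 and 12.63 on naive and at 12.78, 12.76 and 12.72 on primed arrays. The groups did not overlap, but the difference of 0.12 did not pass (adjusted p = 0.082). It passed after quantile normalization (0.19, adjusted p = 0.0070), without dim genes (adjusted p = 0.043) and with an intensity trend (adjusted p = 0.011). Pgk1, phosphoglycerate kinase, differed by -0.04 (interval -0.15 to 0.08) and Pgam1, phosphoglycerate mutase, by -0.02 (interval -0.14 to 0.10). For each of these genes 2 of 3 probe sets carried identical values on all arrays. The muscle mutase gene Pgam2 lay under the cutoff on all arrays (6.68 ± 0.04 in naive and 6.59 ± 0.13 in primed cells, SD, n = 3), where a change could not be read.

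The 2 measured enolase genes moved in opposite directions, while Eno1, the widely expressed enolase, was not measured. Eno2, the gamma enolase known from neurons, was at 7.91, 8.03 and 8.01 on naive and at 9.25, 9.14 and 9.04 on primed arrays. It had the largest difference of the 30 genes, 1.16 or 2.23-fold (SE 0.06, adjusted p = 7.2e-08). Eno3, the beta enolase known from muscle, fell from 11.38, 11.34 and 11.39 to 10.98, 10.87 and 10.87. The difference was -0.46 (SE 0.05, adjusted p = 2.6e-05), and the groups of neither gene overlapped. Of 10 neuronal genes, 8 were also higher in primed cells, against 21.8% of all genes, led by Dcx (0.92) and Elavl4 (0.54), both in background in naive cells, Map2 (0.82) and Elavl3 (0.65). Stmn2 was lower (-0.35). Their summed level was 13.44 to 13.49 in naive cells and 13.35 to 13.41 in primed cells, a sum that Stmn2 dominates (13.00 and 12.65), so its direction is that of this gene and not of the 8 that rose. Of 12 muscle genes, 5 were lower in primed cells, led by Des (-1.59), Myh3 (-0.53), Mylpf (-0.34) and Acta1 (-0.32), and none was higher (22.7% and 21.8% of all genes). Their summed level was 11.98 to 12.15 in naive cells against 11.70 to 11.73, with Myf5, Myl1, Mylpf and Myog in background in both groups. The neuronal list was also drawn up for Aldoc (0.56) and Slc2a3 (-0.08, not passing). The muscle list was also drawn up for Pfkm (0.82) and for Pgam2, which lay in background. The part of neuronal or muscle-type expression in the values of these genes and of the enolases was not tested.

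Pyruvate kinase closes glycolysis. Pkm was at 13.00, 13.04 and 13.02 on naive and at 12.91, 12.95 and 12.92 on primed arrays, so that all naive arrays were higher. The difference of -0.10 did not pass (interval -0.20 to 0.01, adjusted p = 0.15). The other probe set of the gene gave -0.07 (adjusted p = 0.37). The array values do not separate the M1 and M2 splice forms of Pkm.

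Lactate dehydrogenase genes moved apart. Ldhb, whose heart-type subunit favours the use of lactate, was at 10.53, 10.49 and 10.47 on naive and at 11.31, 11.25 and 11.18 on primed arrays. The rise was 0.75 or 1.69-fold (SE 0.05, adjusted p = 5.9e-07), and another probe set gave 0.67. Ldha, whose muscle-type subunit favours making lactate, was at 13.86, 13.97 and 13.92 on naive and at 13.74, 13.76 and 13.70 on primed arrays. The primed arrays were all lower (-0.18, SE 0.05, adjusted p = 0.015). That call ended after quantile normalization (adjusted p = 0.094), and when naive replicate 2 (0.058) or primed replicate 3 (0.060) was left out.

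Lactate leaves and enters cells through monocarboxylate transporters. Slc16a1, for MCT1, was at 12.25, 12.36 and 12.29 on naive and at 12.47, 12.47 and 12.40 on primed arrays, a rise of 0.15 (SE 0.05, adjusted p = 0.044). The groups did not overlap, but the call rested on 5 of the 6 arrays, all but naive replicate 2. Without naive replicate 1 or 3 the adjusted p was 0.14 or 0.11, and without primed replicate 1, 2 or 3 it was 0.095, 0.12 or 0.053. Median centring ended it too (adjusted p = 0.26). Slc16a3, for the export-type transporter MCT4, was at 12.14, 12.18 and 12.20 on naive and at 12.24, 12.17 and 12.19 on primed arrays. Its groups overlapped and it differed by 0.03 (interval -0.09 to 0.14).

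Of the genes that regulate pyruvate dehydrogenase, Pdk2, Pdk4 and Pdp1 passed, and Pdk1 and Pdk3 did not. Pdk4, a kinase known to rise on fasting and fat oxidation, was at 7.19, 7.39 and 7.38 on naive and at 8.16, 8.34 and 8.33 on primed arrays. It rose by 0.96 or 1.94-fold (SE 0.07, adjusted p = 6.9e-07), from a naive level near background. Pdk2, a kinase of many tissues, went from 8.02, 8.20 and 8.13 to 9.01, 8.97 and 8.94, a rise of 0.86 or 1.81-fold (SE 0.06, adjusted p = 4.2e-07). Every primed array exceeded every naive one for both genes.

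The other kinases did not pass. Pdk1, a target of hypoxia signalling, was at 9.44, 9.43 and 9.38 on naive and at 9.27, 9.39 and 9.34 on primed arrays (-0.08, interval -0.20 to 0.04, adjusted p = 0.25). Pdk3 was at 10.60, 10.65 and 10.64 on naive and at 10.73, 10.72 and 10.69 on primed arrays, and differed by 0.08 (interval -0.02 to 0.19, adjusted p = 0.20) without overlap. The opposing phosphatase gene Pdp1 also rose, from 9.72, 9.81 and 9.71 to 10.10, 10.06 and 10.04 (0.32, SE 0.05, adjusted p = 0.00037). Of the 4 kinase genes 2 rose, as did this phosphatase gene. Pdha1, the catalytic subunit that the kinases phosphorylate, stood at 11.87 ± 0.03 and 11.87 ± 0.02 (SD, n = 3), with an interval of -0.11 to 0.11 for the difference. Pdhb, its partner subunit, was at 9.76, 9.97 and 9.67 on naive and at 9.61, 9.65 and 9.58 on primed arrays. Its difference of -0.19 missed the threshold (adjusted p = 0.056) and passed without naive replicate 3 (-0.25, adjusted p = 0.017), with median centring (adjusted p = 0.015), without dim genes (0.031) and with an intensity trend (0.035).

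**Figure D2:**
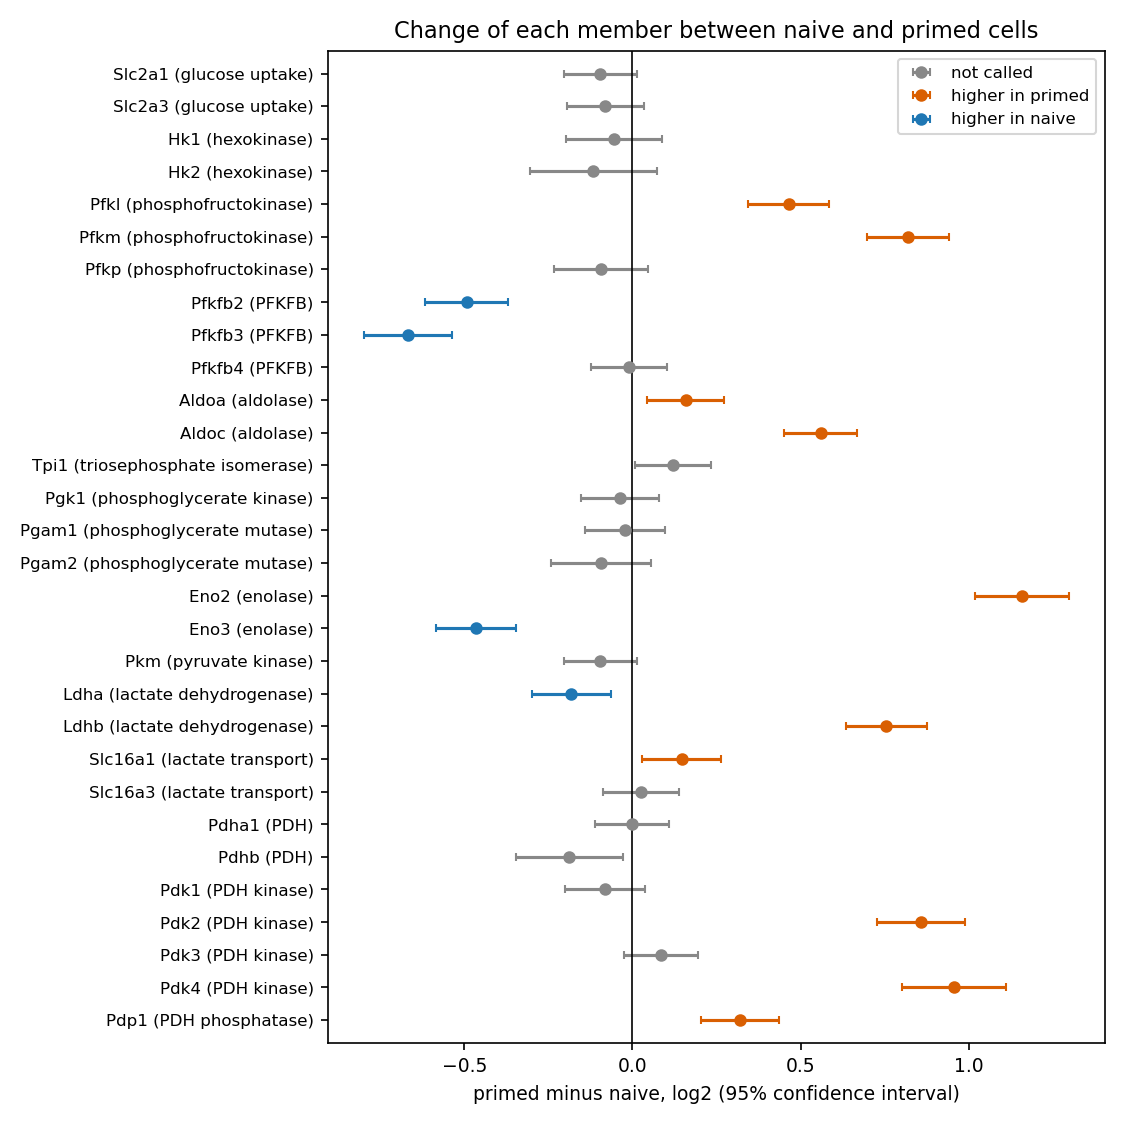
Primed minus naive difference (log2, horizontal axis) of each measured gene, from glucose uptake at the top to pyruvate dehydrogenase at the bottom, with 95% confidence intervals from limma. Genes higher in primed cells are orange, those higher in naive cells blue and those that did not pass grey; differences run from -0.67 for Pfkfb3 to 1.16 for Eno2.

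Isozymes of a step were then compared within each array, as the log2 value of one gene minus that of another, so that a scale factor of the whole array cancels. Of 24 pairs listed, 19 could be measured, and in 15 of these the naive and primed values did not overlap. Over all single genes 52.9% did not overlap, and the share over other gene pairs was not worked out. Some pairs share a gene, so the 19 are not separate. For each of the 15 a two-sided exact permutation test gave p = 0.1, the smallest that 3 against 3 arrays allow, and an adjusted p of 0.13 over the 19 pairs. No pair could therefore pass the threshold. In 9 pairs the changes of the paired genes differed by at least 0.5.

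The largest shift of the 19 pairs was that of Eno2 against Eno3, and no pair with Eno1 could be measured. Eno2 minus Eno3 stood at -3.38 ± 0.08 in naive and -1.76 ± 0.06 in primed cells (SD, n = 3), a shift of 1.62 toward Eno2. Ldha minus Ldhb shifted by -0.94, from 3.42 ± 0.08 to 2.48 ± 0.05, toward Ldhb. Pfkm gained on Pfkp by 0.91 and Pfkl on Pfkp by 0.56, while Pfkm also gained on Pfkl (Pfkl minus Pfkm, -0.35). Aldoa minus Aldoc changed by -0.40, toward Aldoc.

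Among the kinases, Pdk1 lost ground to Pdk2 (-0.94) and to Pdk4 (-1.04). For Pdk2 against Pdk4 the groups overlapped (-0.10). Pfkfb3 lost 0.66 and Pfkfb2 0.48 against Pfkfb4, as Pfkfb3 minus Pfkfb4 and Pfkfb2 minus Pfkfb4 went from 2.14 ± 0.10 and 1.29 ± 0.10 to 1.48 ± 0.05 and 0.80 ± 0.04 (SD, n = 3). The glucose transporters overlapped too, as Slc2a1 minus Slc2a3 was 0.22 ± 0.04 in naive and 0.20 ± 0.01 in primed cells. Hk1 against Hk2 and Pgam1 against Pgam2 also overlapped, the former on the doubtful Hk1 probe set and the latter with Pgam2 in background.

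**Figure D3:**
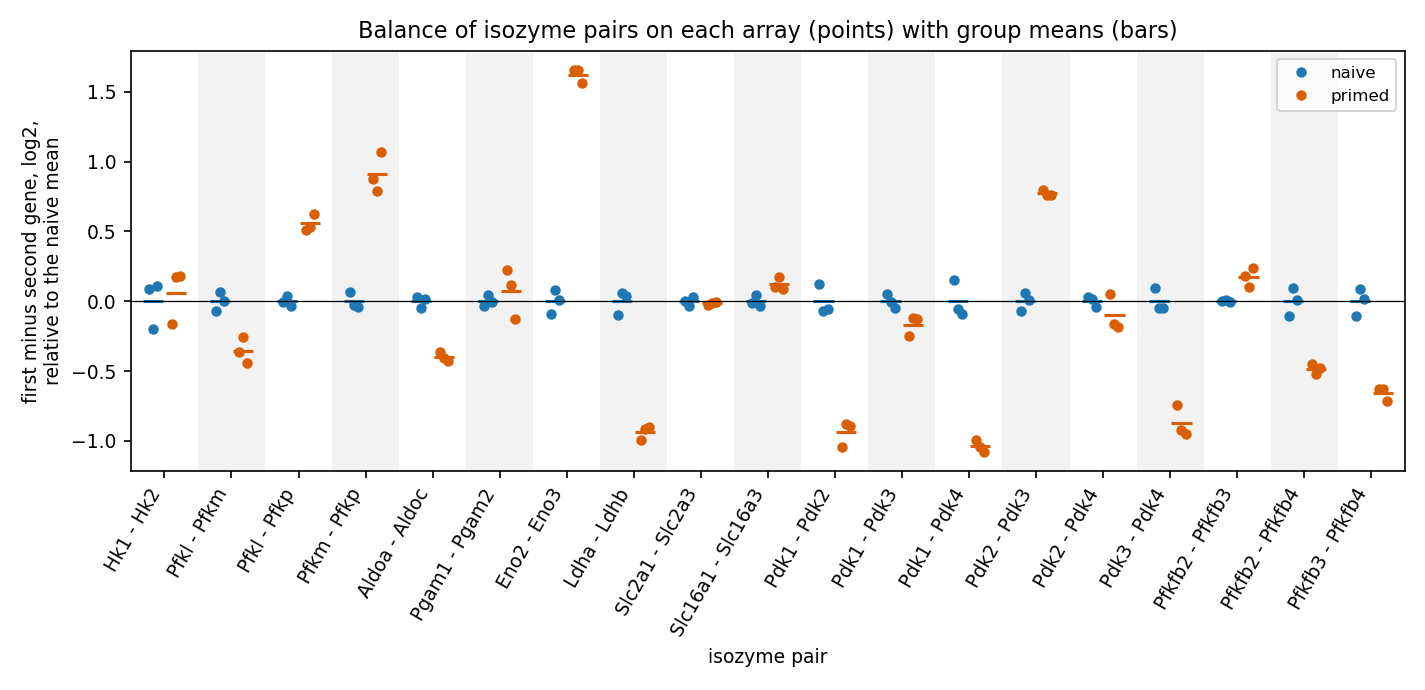
Log2 value of the first minus the second gene of each of 19 isozyme pairs on each array, set to 0 at the naive mean (vertical axis), with points for arrays and bars for group means. Eno2 against Eno3 moved by 1.62 and Ldha against Ldhb by -0.94, while Slc2a1 against Slc2a3 stayed within the spread of the naive arrays.

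Upstream sequences were read for the same genes, since several of the changed genes are textbook targets of factors that bind short motifs. RefSeq promoter windows (GRCm38.p6) were found for 32 of the 34 genes, all but Slc2a3 and Pdp1, with 51 annotated starts, and the 250 bases before each start were searched on both strands. ACGTG, a form of the core of the hypoxia response element, lay in at least 1 window of 15 of the 32 genes (46.9%), against 18.5% of all 27025 genes. Other forms of that core were not searched. Per window ACGTG was found in 37.3% for these genes and 16.6% over all 32851 windows. CACGTG, the E-box bound by MYC and carbohydrate response factors, contains ACGTG on both strands, so the counts are not separate. Per window it was 11.8% against 6.02%, and per gene it lay in windows of 6 genes (18.8%), against 6.86% of all genes. These were Ldha, Pfkfb2 and Pfkfb3, which were lower in primed cells, and Pdk2, Pfkm and Slc16a1, which were higher. The half-site AAGGTCA of estrogen-related receptors lay in windows of Eno1 and Pfkfb1, neither of which was measured. That is 6.25% of genes, against 4.70% of all genes, but 3.92% of windows, against 4.08% of all windows. A match describes letters only, and GC content was not matched.

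The lactate dehydrogenase windows are shown whole because these isozymes moved apart, and the Ldha window is 1 of 2 and was chosen for its motifs. The window of Ldha (chr7:46845554-46845803, + strand, the upstream of its 2 starts) holds CACGTG at 145 and at 48 bases before the start and a further ACGTG on the reverse strand. The window of the other Ldha start (chr7:46846832-46847081, + strand, not shown) holds none of the motifs searched. That of Ldhb (chr6:142507958-142508207, - strand) likewise holds none. Capitals mark the motifs.
Ldha: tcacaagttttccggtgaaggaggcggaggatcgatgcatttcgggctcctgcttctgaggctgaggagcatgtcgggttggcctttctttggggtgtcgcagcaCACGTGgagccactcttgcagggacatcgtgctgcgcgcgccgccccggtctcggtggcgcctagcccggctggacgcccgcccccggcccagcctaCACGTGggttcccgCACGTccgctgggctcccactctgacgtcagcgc
Ldhb: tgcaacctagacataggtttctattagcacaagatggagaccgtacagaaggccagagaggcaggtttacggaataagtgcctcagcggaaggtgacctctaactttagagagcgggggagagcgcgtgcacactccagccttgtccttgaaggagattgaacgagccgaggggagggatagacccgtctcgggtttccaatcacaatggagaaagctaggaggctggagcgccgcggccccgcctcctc

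Around the E-box the other 5 genes read as follows, with the motif in capitals. With Ldha they make 3 of 9 genes higher in primed cells, 3 of 4 higher in naive cells and 0 of 15 not passing. For ACGTG the same counts were 4 of 9, 3 of 4 and 8 of 15. The shares of called and uncalled genes with an E-box were not worked out over all genes. A link between motif and call was not tested. Only measured genes with a window were counted, and any window with the motif sufficed. Pdk2, Pfkm, Pfkfb2 and Pfkfb3 also have annotated starts whose windows hold no E-box. The calls of Ldha and Slc16a1 were fragile. The sites lie at chr11:95041467-95041522 (- strand) for Pdk2, chr15:98092428-98092483 (+ strand) for Pfkm, chr3:104638439-104638494 (+ strand) for Slc16a1, chr1:130715822-130715868 (- strand) for Pfkfb2 and chr2:11502113-11502168 (- strand) for Pfkfb3.
Pdk2: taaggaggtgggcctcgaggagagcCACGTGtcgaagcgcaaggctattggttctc
Pfkm: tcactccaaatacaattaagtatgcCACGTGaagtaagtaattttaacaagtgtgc
Slc16a1: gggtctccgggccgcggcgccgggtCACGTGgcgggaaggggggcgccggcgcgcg
Pfkfb2: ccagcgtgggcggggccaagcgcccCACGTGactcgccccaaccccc
Pfkfb3: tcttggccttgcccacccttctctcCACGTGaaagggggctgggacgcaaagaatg

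A separate list held genes known as regulators of glycolytic genes in pluripotent cells. Of 20 measured regulators, 6 were higher in primed and 7 in naive cells, where the shares over all genes were 21.8% and 22.7%. Ppargc1a, among the 6, lay in background in both groups. The MYC family gene Mycn (-0.92) and its partner Max (-0.48) were lower in primed cells, as was Myc (-0.67), while Mycl did not pass (0.15). Mlxipl, for the glucose-sensing factor ChREBP, rose by 0.77, but Mlx on the same list was lower (-0.30) and Mlxip did not pass (0.01). Ppargc1b, a coactivator of mitochondrial genes, rose by 1.01 and Otx2 by 0.92. Esrrb, which encodes an estrogen-related receptor, had the largest difference of this list (2.98).

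Of 24 genes of hypoxia signalling, 14 were higher in primed cells, 4 lower and 6 did not pass, where 21.8% of all genes were higher and 22.7% lower. Car9, among the 14, lay in background in both groups. Median centring gave 12 and 5 (3439 and 6325 of all 19938 genes) and quantile normalization 16 and 4 (5011 and 4092). Vegfa, an angiogenic growth factor, rose by 1.64 and the carbonic anhydrase gene Car12 by 0.83. Epas1, for the oxygen-regulated factor HIF-2 alpha, fell by 1.45 on the log2 scale and Ndrg1, another hypoxia target, by 0.80. Hif1a itself differed by -0.08 (adjusted p = 0.33).

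Neighbouring routes of glucose carbon were read in the same way. Counts on the deposited values stand against 21.8% (primed cells higher) or 22.7% (naive cells higher) of all genes. Those with median centring stand against 3439 and 6325 of 19938 genes, and those after quantile normalization against 5011 and 4092. In gluconeogenesis, 4 of 8 genes were higher in primed cells and 3 in naive cells (5 and 2 after quantile normalization), with Fbp1 and G6pc in background. Pck2, the mitochondrial carboxykinase, rose by 1.34, the glucose-6-phosphate transporter gene Slc37a4 by 0.78, the pyruvate carboxylase gene Pcx by 0.55 and G6pc3 by 0.42. The enzymes of the tricarboxylic acid cycle gave 6 of 19 genes higher in primed cells, none higher in naive cells and 13 not passing, with a median of 0.11. Over all genes 44.5% were called in either direction. Median centring gave 6 and 2 and quantile normalization 13 and 0. Idh2 (0.79), Sucla2 (0.79), Idh1 (0.66) and Suclg2 (0.50) led them.

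The pentose phosphate branch was split, 4 higher in primed and 3 in naive of 10 measured (5 and 2 after quantile normalization, 4 and 4 with median centring). Pgd, the oxidative decarboxylase, was lower in primed cells (-0.62) and Pgls, the lactonase before it, higher (0.57), as were Tkt (0.35) and Prps1 (0.33). Other genes of pyruvate entry gave 2 higher and 2 lower of 7 (2 and 1 after quantile normalization, 2 and 3 with median centring), with Pdhx, the E3-binding protein of pyruvate dehydrogenase, at -0.57, Pdp2 at 0.43, Dlat at 0.27 and Dld at -0.17.

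Less common sugar transporters did include called genes. Of 13 other transport genes, 5 were higher in primed and 2 in naive cells. Slc5a1, among those 2, lay in background in both groups, as did Slc2a2 and Slc2a10. Slc2a12 rose by 0.92, the insulin-responsive transporter gene Slc2a4 by 0.82 and Slc2a6 by 0.73, and the fructose transporter gene Slc2a5 was lower (-0.79). Among 12 further glycolysis and sugar-handling genes, 3 were higher and 1 lower in primed cells. Galm, which interconverts glucose anomers, rose from 6.90 ± 0.15, near background, to 8.97 ± 0.15 (SD, n = 3), a difference of 2.08. The phosphoglucomutase genes Pgm1 (0.83) and Pgm2 (0.39) rose and Ldhc, the testis-type dehydrogenase, was lower (-0.45, in background in primed cells). After median centring this list was at 3 and 3.

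**Figure D4:**
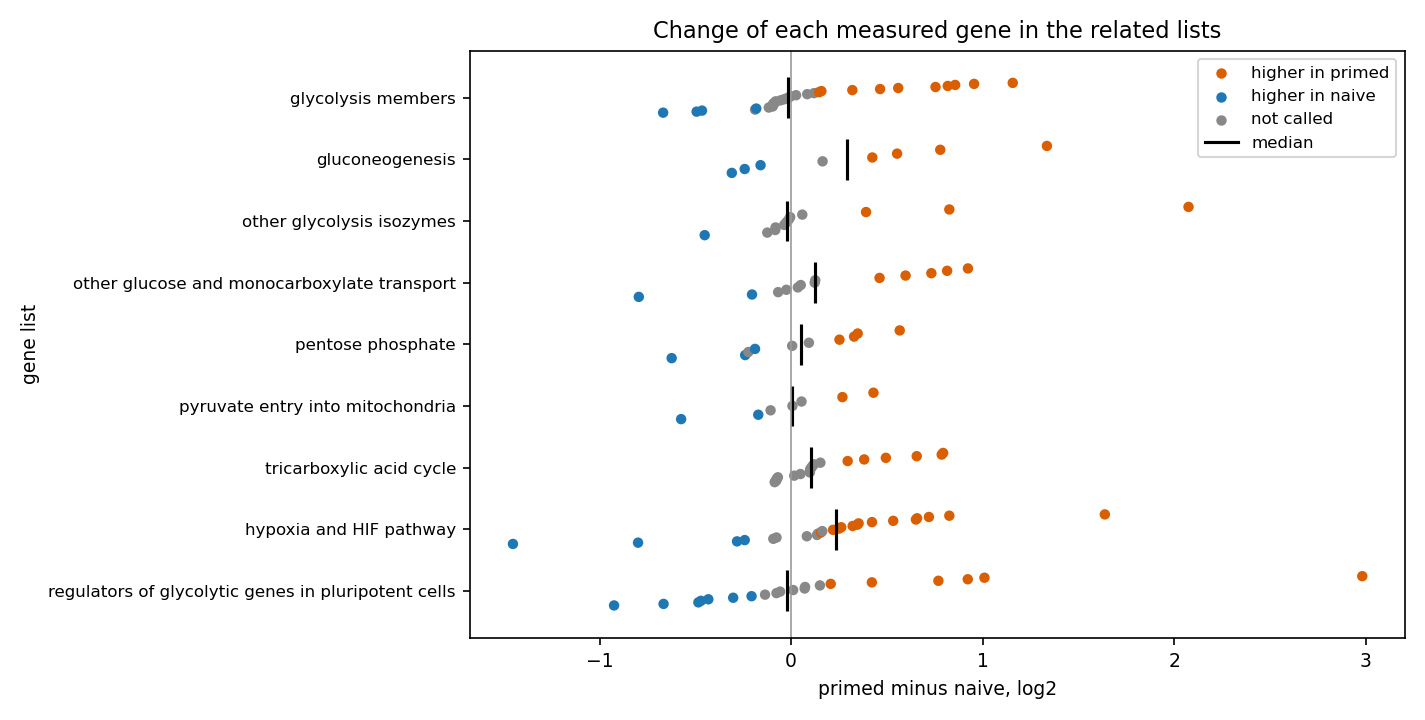
Primed minus naive difference (log2, horizontal axis) of each measured gene in the 30-gene set and in 8 related lists (rows), with a bar for each list's median and colours for genes higher in primed (orange), higher in naive (blue) or not passing (grey). The 30-gene set has a median of -0.02, and the hypoxia list one of 0.24.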

How the data were processed

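Total RNA was hybridised to 6 Affymetrix mouse gene arrays. The deposited values are log2 values; the submitters' processing notes name RMA and Partek 6.6 as the authors' tools. RMA options, the genome build and any batch were not stated there. Names came from GEO's platform annotation (21789 of 35556 with 1 symbol, 1621 with several, 12146 unnamed here), and 21698 were matched to RefSeq symbols by gene ID. The brightest probe set stood for each of 19938 genes.

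Groups were compared over all genes with limma 3.58.1 in R 4.3.3 (lmFit, eBayes, two-sided, no covariates), with Benjamini-Hochberg adjustment and a threshold of 0.05. In simulated arrays of 19938 genes, 50 genes were changed at each size. Known differences of 0.25, 0.5 and 1 were found in 18%, 80% and 100% of cases, so small differences could be missed. In the data 44.5% of all genes were called, far more than were changed there, so these shares need not hold for the data. Isozyme pairs were tested with exact permutation in scipy 1.17.1 (Python 3.11.15). RMA shrinks the differences of dim probe sets, for which no detection call was given. Members and lists were chosen with earlier results of these data known. Text names all members, and of each other list the up to 4 called genes with the largest difference. Further genes were added after their values were seen. These were Myc, Mycl, Max, Mlx, Mlxip, Mlxipl, Hif1a, Zfp42, Sox2, Nanog, Stmn2, Vim and genes named only as lying in background. Alternatives were other scalings, a filter on dim genes at the 40th percentile, averaged probe sets, an intensity trend, weighted arrays, a replicate block, a threshold of 0.01 and leaving out each array. With 3 arrays a group, precision is limited by their number.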

Additional observations from a re-analysis of the deposited data

How the results depend on the processing

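Under 14 alternatives, no member's call was reversed; Pgam2 was tested in 13 of them, since the filter on dim genes left it out. Of the 14 called members, 11 were called in the same direction under each of them, 8 of them higher in primed cells and 3 in naive cells; the exceptions were Aldoa, Ldha and Slc16a1. Of 16 members that did not pass, 8 passed under at least 1 alternative. The members higher in naive cells numbered 10 with median centring and 7 with an intensity trend, against 4. Of all genes, 6325 and 4683 were higher in naive cells in these settings, against 4529. Leaving out each array gave 8 to 9 members higher in primed cells and 3 to 5 in naive cells, and 3926 to 4169 and 4007 to 4455 of all genes. Isozyme pairs without overlap then numbered 15 to 17. That number cannot fall when an array is left out, so it is no check of the pairs. Same-numbered arrays did not deviate together (correlations -0.11, 0.0015 and -0.02). Whether the numbers pair the samples is still not known, since the labels do not say. With the replicate block 9 and 5 members and 4172 and 4344 of all genes were called. There Slc16a1 lost its call (adjusted p = 0.068) and Pdhb gained one (0.037). Reading Hk1 from its RefSeq probe set, chosen after the data were seen, left the counts at 10 and 4. On dim genes such as Pgam2 and naive Pdk4, signal near background limits what can be seen.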
